A study of Homo sapiens with 6 samples.

Results

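The U2 snRNP and branch point factors described here are 10 genes: SNRPA1, SNRPB2, U2AF1, U2AF2, SF1, DDX46, HTATSF1, PUF60, RBM17 and DDX42. They are a selection and not a full list. They cover U2 snRNP proteins outside the SF3a and SF3b complexes, the U2AF subunits, and helicases and other factors that act at the branch point. They were chosen by name and with their measured DMSO-versus-pladienolide B values known, so that each change below is a description and not a test of the choice. All 10 were found among the 38637 genes listed, and all 10 passed the filter on low values, which left 16178 genes. Polyadenylated RNA was sequenced from OVCAR8, an established human ovarian cancer cell line of wild type genotype, after 72 h in DMSO or in 2 nM pladienolide B. There were 3 samples in each group, all from the same cell line, and the DMSO group received the solvent alone. Pladienolide B is a natural product that binds SF3B1, the largest subunit of SF3b, and the comparison asks how the cells' RNA levels differ when SF3B1 is inhibited. The data cover a single cell line, dose and time point.

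Before an intron is removed, its ends and its branch point, the adenosine that attacks the upstream splice site, have to be recognised. SF1 first binds the branch point sequence while the U2AF heterodimer binds the pyrimidine tract and the downstream AG. The U2 snRNP, a particle of U2 snRNA, a ring of Sm proteins, the U2-specific proteins A-prime and B-double-prime and the complexes SF3a and SF3b, then displaces SF1 and pairs with the branch point, with RNA helicases remodelling the particle on the way. Pladienolide B occupies the pocket of SF3b in which the branch point adenosine is held.

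The samples held between 22621338 and 26130882 reads on genes, and between 22005 and 22987 genes had at least 1 read. Replicates of a group correlated at 0.9923 or more on the log2 scale, and none duplicated another. DMSO replicate 2 stood apart from the other DMSO samples, with a chi-square per degree of freedom of 7.34 against replicate 1 and 7.25 against replicate 3, while replicates 1 and 3 gave 2.01. It was the highest of the DMSO samples for 6 of the 10 genes, against 41.1% of all tested genes. Of 9 ovarian and epithelial markers, KRT8, KRT18, KRT7, MSLN, PAX8 and EPCAM were abundant, with DMSO means between 477 and 41458 adjusted reads. KRT19, WT1 and MUC16 were low, with DMSO means between 16.4 and 20.6. Of the 9, KRT8 and KRT18 rose by 0.27 and 0.29 on the log2 scale, KRT7 fell from 12528 ± 721 to 8115 ± 1380 adjusted reads and MSLN from 4994 ± 150 to 3683 ± 148 (SD, n = 3), and the other 5 did not pass the threshold. The summed level of the 9 markers lay between 80770 and 86661 in DMSO and between 81207 and 96567 in pladienolide B. Of 8 markers of other cell types, CD3E was at 0 in every sample and PTPRC and DCN had at most 2 recovered reads, while CD68, a lysosomal membrane glycoprotein used as a macrophage marker, rose from 1146 to 1526. VWF, LUM and PECAM1 gave 0.64, 0.41 and 0.05 on the log2 scale, and none passed the threshold. Their DMSO means were low, at 25.5, 20.9 and 31.6 adjusted reads. CD14, with means of 7.42 in DMSO and 14.2 in pladienolide B, was removed by the filter on low values. The summed level of the 8 lay between 1170 and 1345 in DMSO and between 1579 and 1706 in pladienolide B. Without CD68 these sums were 69 to 99 and 102 to 132. The part of these markers in the changes below was not tested.

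Of the 10 genes, 6 rose after pladienolide B, 1 fell and 3 did not pass the threshold, an adjusted p of 0.05 in limma. Across all 16178 genes tested, 22.4% passed it as higher, 25.2% as lower and 47.6% in either direction. SNRPA1 had the highest fold change of the 10 and DDX46 the lowest. The median log2 fold change of the 10 genes was 0.24, from -1.09 to 0.96, and the median of all tested genes was -0.004. The groups of samples did not overlap for 7 of the 10 genes, against 55.3% of all tested genes. These shares are over genes of every level. All of the 10 but U2AF1 lay between the 68.8th and 95.7th percentile of DMSO level. Shares among genes of like level were not computed. Levels are given in adjusted reads, the authors' counts scaled to a common library size, and fold changes are on the scale of log2(adjusted reads + 1). In bulk RNA of this kind, a smaller share of cells that express a gene and less of its RNA in each cell cannot be told apart.

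**Figure D1:**
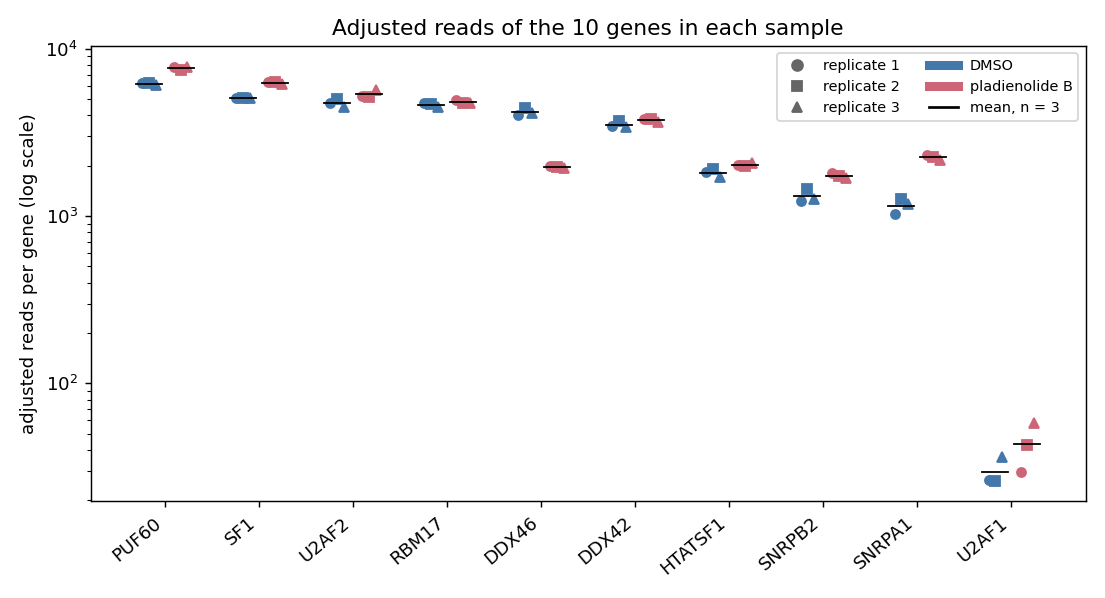
Adjusted reads (log scale) of the 10 genes in each of the 6 samples, ordered by their DMSO mean; marker shapes give the replicate number and lines the mean of 3 samples. DDX46 drops from 4189 to 1968, SNRPA1 moves from 1156.5 to 2250.7, and U2AF1 lies far below the others at 29.5 and 43.4.

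**Figure D2:**
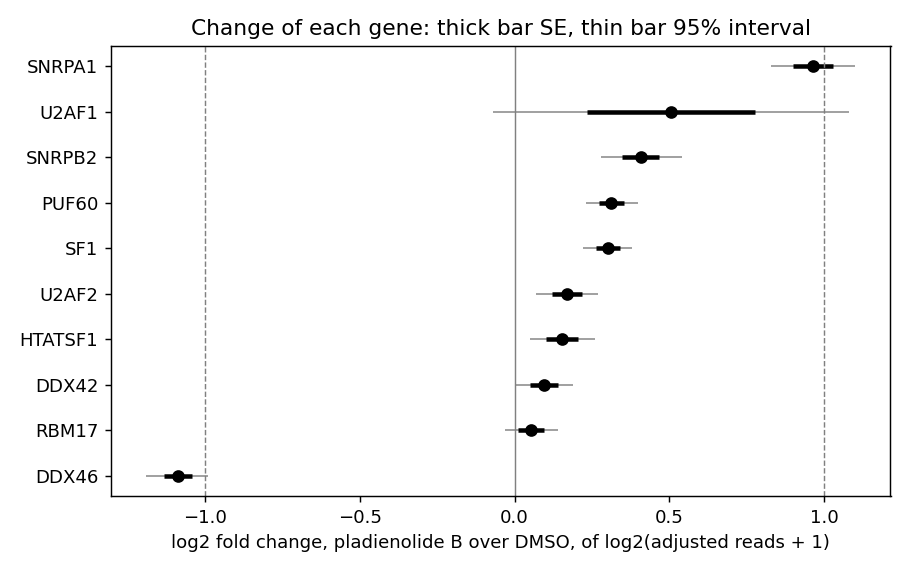
Log2 fold change of each of the 10 genes, pladienolide B over DMSO, with its standard error (thick bar) and 95% interval (thin bar) from limma; dashed lines mark a 2-fold change. SNRPA1 at 0.96 and DDX46 at -1.09 lie farthest from 0, and the interval of U2AF1, -0.07 to 1.08, is the widest.

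SNRPA1 encodes the U2 snRNP protein A-prime, a leucine-rich repeat protein that holds B-double-prime on U2 snRNA. The gene lies on the minus strand of chromosome 15, from 101281510 to 101295248 in GRCh38, and its canonical transcript has 9 exons and 8 introns. It had 1030.9, 1259.9 and 1178.8 adjusted reads in the DMSO samples and 2317.7, 2261.9 and 2172.7 in the pladienolide B samples. Every pladienolide B sample was above every DMSO sample, and the lowest of them was well clear of the highest control. The mean rose from 1156.5 ± 116 to 2250.7 ± 73.2 (SD, n = 3), to 194.6% of DMSO, a log2 fold change of 0.96 (SE 0.0638). This was the 368th highest of the 16178 tested genes. The spread among samples was wider in DMSO, with a coefficient of variation of 10%, than in pladienolide B, with 3.25%. Over 5620 genes with at least 1000 adjusted reads, the median coefficient of variation in DMSO was 3.94%.

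SNRPB2 encodes B-double-prime, the partner of A-prime, which binds a stem-loop of U2 snRNA through an RNA recognition motif. The gene lies on the plus strand of chromosome 20, from 16730026 to 16742564, with 7 exons in the canonical transcript. Its adjusted reads were 1222.3, 1447.4 and 1272.9 in DMSO and 1805.9, 1727.2 and 1682.6 in pladienolide B. All treated samples were above all controls, and DMSO replicate 2 was the highest control, as for SNRPA1. The mean rose from 1314.2 ± 118 to 1738.6 ± 62.4 (SD, n = 3), a log2 fold change of 0.41 (SE 0.0612). Both proteins of the pair thus had higher RNA after treatment, but by unequal amounts. The ratio of SNRPA1 to SNRPB2 within a sample was 0.843, 0.87 and 0.926 in DMSO and 1.28, 1.31 and 1.29 in pladienolide B. Counted per gene and not per length, SNRPA1 was therefore the less abundant RNA in every DMSO sample and SNRPB2 in every pladienolide B sample. Per kilobase of all annotated exonic bases, SNRPB2 stayed above SNRPA1 in pladienolide B, at 666.6 against 613.5. Per kilobase of the canonical transcript, SNRPA1 was already above SNRPB2 in DMSO, at 1099 against 545.1. The order of the pair thus depends on the length used. SNRPA, the U1 snRNP protein that resembles SNRPB2, had 2414.5 ± 121 and 2293.6 ± 52.5 (SD, n = 3), a log2 fold change of -0.07 that did not pass the threshold.

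U2AF2 encodes the large U2AF subunit, which binds the pyrimidine tract. Its locus is on the plus strand of chromosome 19, from 55654132 to 55674716, with 12 exons. The DMSO samples had 4774, 5003.7 and 4503.3 adjusted reads and the pladienolide B samples 5239.4, 5141.3 and 5660.1. The groups were close but did not overlap. The mean rose from 4760.3 ± 250 to 5346.9 ± 276 (SD, n = 3), a log2 fold change of 0.17 (SE 0.0486). This call rested on single samples: without DMSO replicate 3 the value was 0.13 and without pladienolide B replicate 3 it was also 0.13, and neither passed the threshold.

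SF1 encodes the branch point binding protein. The gene is on the minus strand of chromosome 11, from 64764606 to 64778769, with 13 exons. Its 3 DMSO samples were the most alike of any of the 10 genes, at 5074.2, 5088.4 and 5094.5 adjusted reads, a coefficient of variation of 0.205%. The pladienolide B samples had 6295, 6320.3 and 6190.2 adjusted reads, all above the controls. The mean rose from 5085.7 ± 10.4 to 6268.5 ± 69 (SD, n = 3), a log2 fold change of 0.30 (SE 0.0383). U2AF2 and SF1, whose proteins bind an intron together, were at similar levels per gene, and the ratio of U2AF2 to SF1 was 0.936 ± 0.05 in DMSO and 0.853 ± 0.054 in pladienolide B, with groups that overlapped.

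U2AF1 encodes the small U2AF subunit, which contacts the AG at the end of the intron. It is annotated on the minus strand of chromosome 21, from 43092956 to 43108291, with 8 exons. Only 26.3, 26.2 and 36.1 adjusted reads were counted in DMSO and 29.4, 42.7 and 58.1 in pladienolide B. The groups overlapped, with pladienolide B replicate 1 below DMSO replicate 3. The log2 fold change was 0.51 (SE 0.271), with a 95% interval of -0.07 to 1.08, and did not pass the threshold. Without pladienolide B replicate 1 it was 0.75 and passed, and without pladienolide B replicate 3 it was 0.27 and did not. U2AF1 was thus at the 13th percentile of all tested genes in DMSO while its partner U2AF2 was at the 93.8th.

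The reference holds a copy of U2AF1, and its sequence is shown because it bears on how many reads the gene could receive. U2AF1L5 lies on the same strand of chromosome 21, and GENCODE v44 marks its locus, from 6484623 to 6499248, as an artifactual duplication whose real copy is U2AF1. Of the 8 exons of U2AF1, 7 were identical in the copy, with 1 edit in 945 bases (99.89% identity), and all 8 coding parts were identical over 720 bases. The first 90 coding bases, over 2 exons, are printed below from hg38 with the start codon in capitals, for U2AF1 between 43104357 and 43107494 and for U2AF1L5 between 6496035 and 6499172. They are the same letter for letter.
U2AF1: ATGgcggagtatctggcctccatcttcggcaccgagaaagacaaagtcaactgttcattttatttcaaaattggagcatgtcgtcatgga
U2AF1L5: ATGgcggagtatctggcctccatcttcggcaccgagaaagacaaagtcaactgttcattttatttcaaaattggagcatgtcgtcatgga

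Stretches of 100 and 150 bases within the exons of each canonical transcript were looked up in hg38. For U2AF1, 4.8% of the 251 stretches of 100 bases were found at a single place, and every one of the 145 stretches of 150 bases was found at 2 places. For SNRPA1, 75.0% of the 280 stretches of 100 bases were found once, and the rest at up to 3 places, while all 127 stretches of 150 bases were found once. For the other 8 genes every stretch of either length was found once. The read length, and how reads with several places were counted, are not given in the sources used here. U2AF1L5 itself received 30, 33 and 24 reads in DMSO and 38, 28 and 27 in pladienolide B, and U2AF1 28, 26 and 38, and 28, 40 and 58. The 2 genes together had 57.5 ± 2.65 adjusted reads in DMSO and 75.6 ± 8.52 in pladienolide B (SD, n = 3), and U2AF2 had 82.8 and 71.1 times as many. The values of U2AF1 are therefore those of a gene whose exons recur elsewhere in the reference, and the part of this in its level was not tested.

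**Figure D3:**
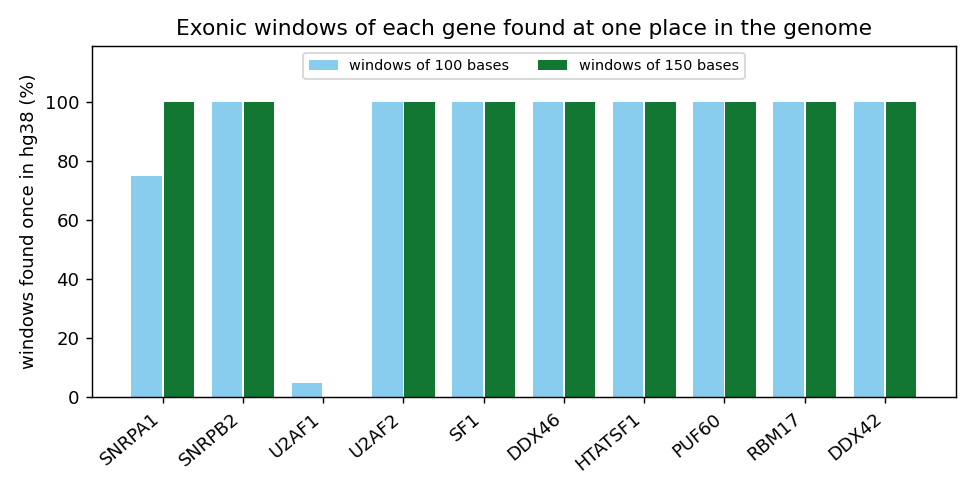
Percent of exonic stretches of 100 bases (light) and 150 bases (dark) of each gene's canonical transcript that occur at a single place in hg38. U2AF1 has 4.8% and 0.0%, SNRPA1 75.0% and 100%, and the other 8 genes 100% at both lengths.

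HTATSF1, PUF60 and RBM17 carry a U2AF homology motif, a protein fold that U2AF2 uses to bind SF1 and SF3B1. HTATSF1 (Tat-SF1) joins the free U2 snRNP by binding SF3B1. It lies on the plus strand of chromosome X, from 136497227 to 136512346, and had 1822.6, 1921.2 and 1710.3 adjusted reads in DMSO and 2007.4, 1987.8 and 2068.4 in pladienolide B. Each treated sample was above each control, though the highest control was close to the lowest treated sample. The mean rose from 1818 ± 106 to 2021.2 ± 42.1 (SD, n = 3), a log2 fold change of 0.15 (SE 0.0514). The call depended on single libraries: the value was 0.11 without DMSO replicate 3, 0.16 without pladienolide B replicate 1 and 0.14 without pladienolide B replicate 3, and none of these passed.

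PUF60 binds pyrimidine tracts and acts with U2AF2 at weak splice sites. It lies on the minus strand of chromosome 8, from 143816344 to 143829315, with 12 exons. Its adjusted reads were 6271.9, 6208.3 and 6058.4 in DMSO and 7823.8, 7427.7 and 7776.6 in pladienolide B, with a wide gap between the groups. The mean rose from 6179.5 ± 110 to 7676 ± 216 (SD, n = 3), a log2 fold change of 0.31 (SE 0.0398). The ratio of PUF60 to U2AF2 was 1.3 ± 0.054 in DMSO and 1.44 ± 0.06 in pladienolide B, and these groups did not overlap. LOC107986985, a long noncoding RNA on the opposite strand, shares 36 bases of span with PUF60 and had 75.7 ± 5.36 and 108 ± 2.39 adjusted reads, few beside those of PUF60. Whether counting used the strand is not given in the sources used here.

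RBM17 (SPF45) takes part in the recognition of the downstream splice site and can stand in for U2AF on introns with a short pyrimidine tract. Its position is the plus strand of chromosome 10, from 6089034 to 6117447. Its adjusted reads were 4733.7, 4659 and 4493.1 in DMSO and 4935.7, 4737.5 and 4728.1 in pladienolide B, and the groups overlapped at DMSO replicate 1. The log2 fold change of 0.05 (SE 0.0414), with a 95% interval of -0.03 to 0.14, did not pass the threshold. Among HTATSF1, PUF60 and RBM17 the log2 fold changes thus ran from 0.05 for RBM17 to 0.31 for PUF60. U2AF2, whose protein uses the same fold, had 0.17. RBM39 and RBM23, related splicing factors with a motif of the same kind, gave -0.39, past the threshold, and 0.10, not past it. RBM39 fell from 7549 ± 140 to 5773 ± 108 adjusted reads (SD, n = 3).

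DDX46, the human Prp5, is the helicase that remodels the U2 snRNP so that it can pair with the branch point, and it was the only one of the 10 genes that fell. It lies on the plus strand of chromosome 5, from 134758778 to 134831121, and with 72344 bases and 22 introns it has the longest span and the most introns of the 10. The DMSO samples had 4030.8, 4422.1 and 4114.2 adjusted reads and the pladienolide B samples 1997.8, 1964.1 and 1942.2. The treated samples lay within a narrow range far below all controls. The mean fell from 4189 ± 206 to 1968 ± 28 (SD, n = 3), to 46.98% of DMSO, a log2 fold change of -1.09 (SE 0.0462). Among the tested genes it was the 239th lowest. Leaving out each sample in turn and changing the test moved the value between -1.12 and -1.05, and it was called in all 15 settings.

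DDX42, a helicase of the same DEAD-box family that also binds SF3B1, gave a small value of the other sign. Its locus is on the plus strand of chromosome 17, from 63773856 to 63819317, with 17 introns. Its adjusted reads were 3441.6, 3691.3 and 3393.8 in DMSO and 3784.2, 3788.3 and 3668.8 in pladienolide B, and DMSO replicate 2 was above the lowest treated sample. The log2 fold change was 0.10 (SE 0.0446) and did not pass the threshold; without DMSO replicate 2 it was 0.13 and passed. DDX42 was the less abundant of both helicases per gene in every DMSO sample and the more abundant in every pladienolide B sample. The ratio of DDX42 to DDX46 was 0.854, 0.835 and 0.825 in DMSO and 1.89, 1.93 and 1.89 in pladienolide B. Per kilobase of all annotated exonic bases, DDX42 also moved from below DDX46, at 411.8 against 455.1, to above it, at 439.7 against 213.8. Per kilobase of the canonical transcript, DDX42 was already above DDX46 in DMSO, at 886.3 against 738.3.

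**Figure D4:**
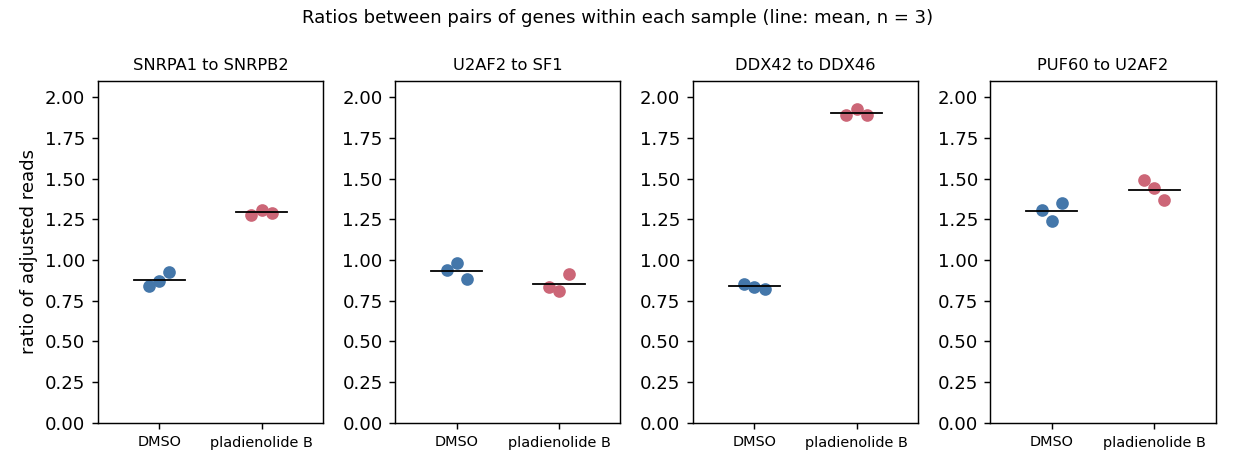
Ratios of adjusted reads within each sample for 4 pairs of genes, with lines at the mean of 3 samples. DDX42 to DDX46 moves from 0.838 to 1.9 and SNRPA1 to SNRPB2 from 0.88 to 1.29, both across 1 when counted per gene and not per length. The groups overlap for U2AF2 to SF1 and lie close for PUF60 to U2AF2.

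The promoters of the 3 genes with the largest changes whose 150-base stretches were all unique, SNRPA1, SNRPB2 and DDX46, are printed from RefSeq (GRCh38.p14), from 250 bases before to 50 bases after the annotated start. They let the sequence before each start be compared for genes that moved in opposite directions. Capitals mark every match, on either strand, to the motifs searched. The letters searched were CCAAT for the box of that name. For the GC box, which is bound by SP1 and its relatives, they were GGGCGG. For the TATA box, the core promoter element, they were TATAAA. For the ETS core, the element of ETS family factors, they were CCGGAAG. Each motif was searched on its own, so that matches may overlap. SNRPA1 is chr15:101295199-101295498 on the minus strand, SNRPB2 is chr20:16729776-16730075 on the plus strand and DDX46 is chr5:134758529-134758828 on the plus strand.
SNRPA1: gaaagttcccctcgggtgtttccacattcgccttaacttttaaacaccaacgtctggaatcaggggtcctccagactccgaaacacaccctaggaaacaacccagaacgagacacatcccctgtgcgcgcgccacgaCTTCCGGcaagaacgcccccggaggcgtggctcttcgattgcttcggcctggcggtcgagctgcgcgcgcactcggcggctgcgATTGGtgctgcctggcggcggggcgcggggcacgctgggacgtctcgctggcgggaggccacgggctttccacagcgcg
SNRPB2: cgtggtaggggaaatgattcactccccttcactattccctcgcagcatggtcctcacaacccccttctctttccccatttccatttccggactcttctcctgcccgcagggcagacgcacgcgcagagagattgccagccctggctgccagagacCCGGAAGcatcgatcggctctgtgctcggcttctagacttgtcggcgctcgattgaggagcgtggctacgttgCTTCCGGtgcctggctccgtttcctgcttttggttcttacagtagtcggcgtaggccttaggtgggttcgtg
DDX46: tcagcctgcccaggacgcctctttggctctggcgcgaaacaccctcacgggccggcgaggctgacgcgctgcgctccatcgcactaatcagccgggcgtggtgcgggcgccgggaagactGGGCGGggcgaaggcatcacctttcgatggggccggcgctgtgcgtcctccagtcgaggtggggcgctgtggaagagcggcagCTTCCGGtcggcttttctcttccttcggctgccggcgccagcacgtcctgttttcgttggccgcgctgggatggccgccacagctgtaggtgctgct

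All 3 windows held an ETS core, at -113 in SNRPA1, at -95 and -22 in SNRPB2 and at -47 in DDX46, counted from the start to the first base of the match. SNRPA1 also held a reverse CCAAT box at -29, and DDX46 a GC box at -130. Promoters of 9 of the 10 genes were matched in the RefSeq table, and PUF60 was not. The ETS core was in 5 of these 9 promoters and in 10.3% of all 35116 promoters, the GC box in 6 and in 45.0%, the CCAAT box in 2 and in 34.6%, and the TATA box in 0 and in 11.5%. The 5 promoters with an ETS core were those of SNRPA1, SNRPB2 and U2AF2, which rose, of DDX46, which fell, and of DDX42, which did not pass the threshold, while those of SF1 and HTATSF1, which also rose, held none. GC content ran from 58.7% for SNRPB2 and DDX42 to 75.7% for U2AF1 and HTATSF1, and the median of all promoters was 58.7%. The set of all promoters was not matched to these genes by expression or GC content, and a difference in motif share was not tested. These matches are letters in a window and no measurement of binding.

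Levels of different genes were compared after division by length, in adjusted reads per kilobase of all annotated exonic bases. In DMSO the order was U2AF2 at 1178 ± 62, SF1 at 851.6 ± 1.74, PUF60 at 808.3 ± 14.3, RBM17 at 726.4 ± 19.3 and HTATSF1 at 595.1 ± 34.5 (SD, n = 3). It went on with SNRPB2 at 503.9 ± 45.3, DDX46 at 455.1 ± 22.4, DDX42 at 411.8 ± 18.7, SNRPA1 at 315.2 ± 31.6 and U2AF1 at 2.66 ± 0.513. Among neighbours in this order, the ranges over the DMSO samples overlapped only between SNRPB2 and DDX46. In pladienolide B the first 4 genes kept their places, at 1323, 1050, 1004 and 753.4, SNRPA1 moved from place 9 to 7 with 613.5, and DDX46 from 7 to 9 with 213.8. The order depends on the length used, since the annotation of some genes holds many more exonic bases than their main transcript. Examples are 11095 against 945 bases for U2AF1 and 7645 against 1868 for PUF60. Per kilobase of the canonical transcript, PUF60 came first with 3308 and SNRPA1 was in place 5 with 1099, while U2AF1 stayed last with 31.25. The exons of U2AF1 recur elsewhere in the reference, and the part of this in its place was not tested.

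The summed adjusted reads of the 10 genes were 32428, 33728 and 31855 in DMSO and 36236, 35399 and 35948 in pladienolide B. This sum was higher in each treated sample than in any control even though DDX46 fell. Without DDX46 it was 28480 ± 785 and 33890 ± 414 (SD, n = 3).

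The same comparison was made for other spliceosomal genes, for which it describes where the 10 genes lie. The SF3b and SF3a complexes, of which pladienolide B binds SF3b, had 7 of 10 genes higher, 0 lower and a median log2 fold change of 0.30. SF3B1 itself rose from 10085 ± 300 to 12509 ± 333 adjusted reads (SD, n = 3), a log2 fold change of 0.31 (SE 0.0401). SF3B3, another large subunit of SF3b, rose the most, from 7350 ± 27.5 to 13573 ± 390 or by 0.88 on the log2 scale, followed by SF3B4 with 0.60. The small subunits SF3B5 and SF3B6 gave 0.01 and -0.07, with neither past the threshold. SNRPA1 with 0.96 and SF3B3 with 0.88 had the highest values of both groups, and the difference between them was not tested.

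Of 11 other U2-related and A complex factors, 8 were higher and 1 was lower, with a median of 0.17. Without DMSO replicate 1, and likewise without pladienolide B replicate 2, 5 were called higher. DHX15, a helicase that takes spliceosomes apart, rose by 0.37 on the log2 scale and UHMK1, a kinase with a U2AF homology motif, by 0.34. RBM5, an alternative splicing regulator found in early spliceosomes, fell from 2565 ± 13.5 to 1891 ± 48.8 (SD, n = 3), a log2 fold change of -0.44. DDX39B (UAP56), the helicase that U2AF2 recruits, gave -0.07 and did not pass the threshold. Of the U2AF relatives and close copies, 6 of the 8 listed were found under the names tried and tested, of which 0 were higher (1 without DMSO replicate 2) and 2 lower. The lower ones were RBM39 and ZRSR2, the U2AF1-like protein of the minor spliceosome, which fell from 420 ± 15.4 to 347 ± 15.6, a log2 fold change of -0.28. U2AF1L4, another relative of U2AF1, had 70.2 ± 17 and 56.2 ± 12.6, and U2AF1L5 28 ± 5.35 and 32.2 ± 6.49, neither past the threshold.

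Among the 7 Sm core proteins, which form the ring shared by the spliceosomal snRNPs, 2 were higher and 0 lower, with a median of 0.08. SNRPB rose by 0.31 and SNRPD1 by 0.16 on the log2 scale, while SNRPD2 gave -0.03 and SNRPG -0.11 without passing. DMSO replicate 2 was the highest control for all 7, and without it 5 of the 7 were called higher, against 1 when any other single sample was left out. Of 7 proteins of the U11/U12 particle, which recognises the upstream splice site and the branch point of minor introns, 1 was higher and 1 lower. PDCD7 rose by 0.28 on the log2 scale. SNRNP35 gave -0.24 and was called lower, but not without DMSO replicate 1, DMSO replicate 2, pladienolide B replicate 1 or pladienolide B replicate 3. RNPC3 gave -0.24 without passing and SNRNP25 gave 0.06.

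Of 8 helicases of later steps, set beside the helicases DDX46 and DDX42, 5 were higher and 1 lower, with a median of 0.13. Without pladienolide B replicate 1, 2 were called higher. DHX35 rose the most, from 586 ± 17.2 to 884 ± 62.2 adjusted reads (SD, n = 3), a log2 fold change of 0.59, and DHX38, the human Prp16, rose by 0.20 on the log2 scale. DDX41 fell by 0.21 on the log2 scale, and SNRNP200, the helicase that unwinds the U4 and U6 snRNAs, gave 0.01. The log2 fold changes of these 8 helicases lay between -0.21 and 0.59, so that DDX46 with -1.09 was outside their range.

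**Figure D5:**
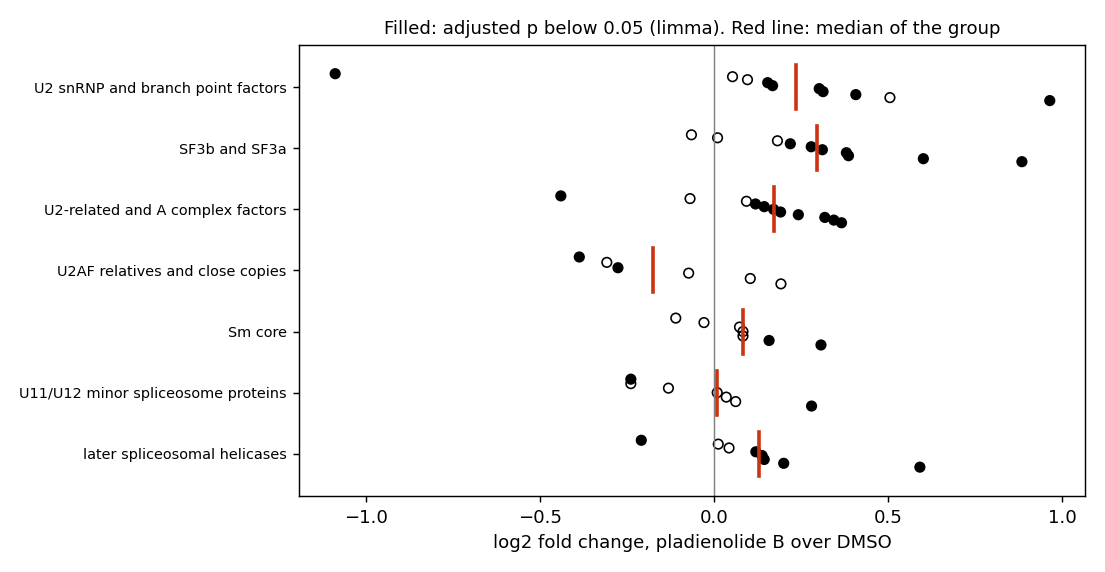
Log2 fold change of each gene, pladienolide B over DMSO, by group of genes; filled points have an adjusted p below 0.05 in limma, open points do not, and red lines are medians. DDX46 at -1.09 is the leftmost point of all groups and SNRPA1 at 0.96 the rightmost, followed by SF3B3 at 0.88.

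The genes whose pattern over the 6 samples was nearest to SNRPA1 and to DDX46 were found among 12071 genes with a mean of at least 100 adjusted reads, by the Euclidean distance between log2 values centred on the DMSO mean. Nearest to SNRPA1 were FOSL1, an AP-1 transcription factor subunit, at a distance of 0.163, TRIB1, a pseudokinase, at 0.173, and GPCPD1, a glycerophosphodiesterase, at 0.188. Their log2 fold changes were 1.04, 0.98 and 1.01. For DDX46 they were CTSZ, a lysosomal cathepsin, at 0.098, PHKB, a phosphorylase kinase subunit, at 0.101, and AGRN, the proteoglycan agrin, at 0.115, with log2 fold changes of -1.05, -1.08 and -1.08. None of these 6 genes is a splicing factor in the lists above, and their likeness is a description of 6 samples.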

How the data were processed

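Polyadenylated RNA of OVCAR8 cells was sequenced. The labels' processing notes name HISAT2, HTSeq 0.12.4 and DESeq2, and list hg19, whereas the methods state hg38; of 35926 symbols matched to RefSeq, 99.8% had GRCh38 positions. The deposited values per gene and sample are a signal, counts adjusted for library size by the authors, and have the form that edgeR's quantile adjustment gives (common dispersion 0.0027). Undoing the adjustment gave a whole number of reads, to a tolerance of 0.02, in 100% of 96432 values at or above 10 and 100% of 38801 values between 0.5 and 10. The authors' deposited log2 fold changes and p-values with q-values were not used.

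Samples were grouped by the treatment label. Adjusted reads were kept by filterByExpr of edgeR 4.0.16 (10 reads in 3 samples, 15 in total) and tested as log2(value + 1) with limma 3.58.1 in R 4.3.3, with a variance trend, two-sided, with Benjamini-Hochberg adjustment over 16178 genes; the pseudocount of 1 makes fold changes of low genes smaller. DESeq2 1.42.0 and edgeR's quasi-likelihood test on recovered reads were alternatives. The recovery of reads and the calls of limma, edgeR and DESeq2 were tested on simulated data. The members and gene lists were chosen with earlier results of these data known. The genes named are the 10 members, SF3B1, the 2 highest and 2 lowest of each list, all U2AF relatives, overlapping genes and the 3 nearest patterns; other markers were named to check the cell type. LOC101928369, which overlaps U2AF1 by 285 bases on the opposite strand, had at most 5.7 adjusted reads, and the other 8 members overlap no listed gene. Exons came from GENCODE v44.

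Nothing in the labels says that replicates were separate cultures, so the p-values measure only the spread between these samples. Whether same-numbered samples were prepared together is not given in the labels. The correlations of same-numbered samples' deviations were -0.018, -0.017 and 0.003. They show no shared deviation but cannot show how the samples were prepared.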

Additional observations from a re-analysis of the deposited data

How the results depend on the processing

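Across 14 alternatives, the number of genes called lay between 6381, in limma without a variance trend, and 7855, without DMSO replicate 2, beside 7695 as reported. edgeR's quasi-likelihood test called 7738, of which 7616 were shared, and DESeq2 6985, of which 6957 were shared. With the replicate number as a block, 7349 genes were called, of which 7271 were shared, the 10 genes again gave 6 higher and 1 lower with a median of 0.24, and no member's call changed. Leaving out each sample in turn gave 6580 to 7855 genes. Of the 140 recomputed fold changes of the 10 genes, 131 kept their direction and their side of the threshold, 7 lost the call, 2 gained one and 0 reversed. The losses were U2AF2 and HTATSF1, in limma without the trend (adjusted p of 0.0886 and 0.0847) and without the samples named in the report (limma adjusted p of 0.0502 to 0.124); the gains were U2AF1 (0.0411) and DDX42 (0.00665). These left 4 to 7 of the 10 genes called higher and always 1 called lower, and the median between 0.21 and 0.25.

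In limma without the trend, 5 and not 8 U2-related factors, 3 and not 5 later helicases, 1 and not 2 Sm proteins and 1 and not 2 ovarian and epithelial markers were called higher, and 0 U11/U12 proteins were called in either direction. Without a filter on low values, 1 Sm protein was called. The U11/U12 protein called lower was not called in edgeR, in DESeq2, with the replicate block or without the filter. Markers of other cell types called higher numbered 1 as reported, but 2 with at least 10 adjusted reads in every sample and 2 without DMSO replicate 2.

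U2AF1, with 26 to 58 reads a sample, ranged from 0.27 to 0.75. A planned length from a table of proteins was not run; lengths of the canonical transcript and of its coding part, chosen after seeing the data, were used instead.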
